A study of Columba livia with 19 samples.

Results

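The birds described here are 8 domestic rock pigeons (Columba livia) of the 19 in the series: 3 recessive red e1/e1 birds (birds 6, 11 and 12) and 5 homozygous wild-type birds (birds 00, 20, 21, 23 and 24). They were chosen by their labelled genotype and batch, with no measured value, and all belong to batch 2, collected in 2020. Bird 22, a wild-type bird that carries 1 copy of e1, stayed out of the test and is shown beside it. The e1 birds (birds 1, 3 and 4) and wild-type birds (birds 1, 2, 3 and 4) sequenced in 2017 serve as separate birds of the same genotypes. The levels of the 3 e2 birds of 2020 are quoted for 1 gene. In every bird secondary flight feathers were plucked, and polyadenylated RNA was taken from the collar of the pigmented feather that regrew, after the dermal pulp had been removed. The labels give no sex or age and do not say whether any birds were related. Sex therefore did not enter any fit, and its balance between the genotypes is not known.

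Recessive red pigeons make red to yellow pheomelanin in feathers where wild-type birds make black to brown eumelanin. The e1 and e2 alleles are known as deletions of regulatory DNA upstream of SOX10, which encodes a transcription factor needed by cells derived from the neural crest. In vertebrates SOX10 acts in melanocytes upstream of MITF and of enzymes such as TYRP1, and melanocytes sit in the feather collar among far more numerous keratinocytes, to which they pass their pigment. The gene identifiers of the count table, headed Cliv2.1, matched 0 of the 22830 pigeon genes in the RefSeq table used here. Genes are therefore given by identifier, the level of SOX10 could not be checked against the labels, and markers of melanocytes, keratinocytes or pulp were not analysed here. In RNA of a whole collar, fewer cells of a type and less RNA per cell cannot be told apart.

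The libraries of the 8 birds held 13559606 to 17823794 counts and 14107 to 14385 detected genes. Total counts, detected genes and the share of counts in the 10 most counted genes gave adjusted p = 0.804, 0.839 and 0.839 between the groups in 2-sided exact permutation tests over 56 groupings. The smallest p such a test can give is 0.0179 before adjustment over the measures. A difference in a single measure could thus hardly be called. In a principal component analysis of log2 CPM (counts scaled to library size), the leading axis held 32.6% of the variance, and on it the e1 birds lay between -41.2 and -18.9 and the wild-type birds between 4.04 and 39.7. The next axis put e1 bird 6 and wild-type bird 21 at 28.9 and 28.4, far from the lowest bird, wild-type bird 00, at -27.6. E1 bird 6 also stood apart from its group in its counts: the mean chi-square per gene was 84.0 against bird 11 and 84.2 against bird 12, but 27.3 between birds 11 and 12. Pairs of wild-type birds of 2020 ranged from 26.9 to 65.0. Chi-square grows with depth, and bird 6 had the most counts of the e1 birds. The wild-type pair of 2020 with the most counts, birds 23 and 24 (17305314 and 17823794), gave 33.2. The part of depth was not tested. The counts of calls, the medians of the called genes, the fold changes of the named genes and the signs in 2017 are also given without bird 6.

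The comparison asks which collar transcripts differ between e1 homozygotes and wild type when all birds come from the same batch. Of 12636 genes with enough counts to test, 69 were lower in e1 and 115 were higher (edgeR quasi-likelihood test, Benjamini-Hochberg adjusted p under 0.05). These are 0.546% and 0.91% of the genes tested. More genes were called higher than lower, but the lower calls had the larger median change. Their median log2 fold change was -1.75, and that of the higher calls was 1.49. The median SE was 0.28 among the lower and 0.24 among the higher calls. A gene with a larger SE needs a larger change to be called, and the part of this in the medians was not tested. At least 4-fold changes were found in 28 of the 69 lower and 28 of the 115 higher genes, and at least 16-fold changes in 8 and 4. The smallest called changes were 0.66 log2 units among the lower genes and 0.51 among the higher genes. In each of the 184 called genes the ranges of the 3 e1 and 5 wild-type birds did not overlap, in CPM. Groups without overlap were found in 4.69% of the tested genes in the lower and 4.56% in the higher direction, so this separation alone does not set the called genes apart.

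**Figure D1:**
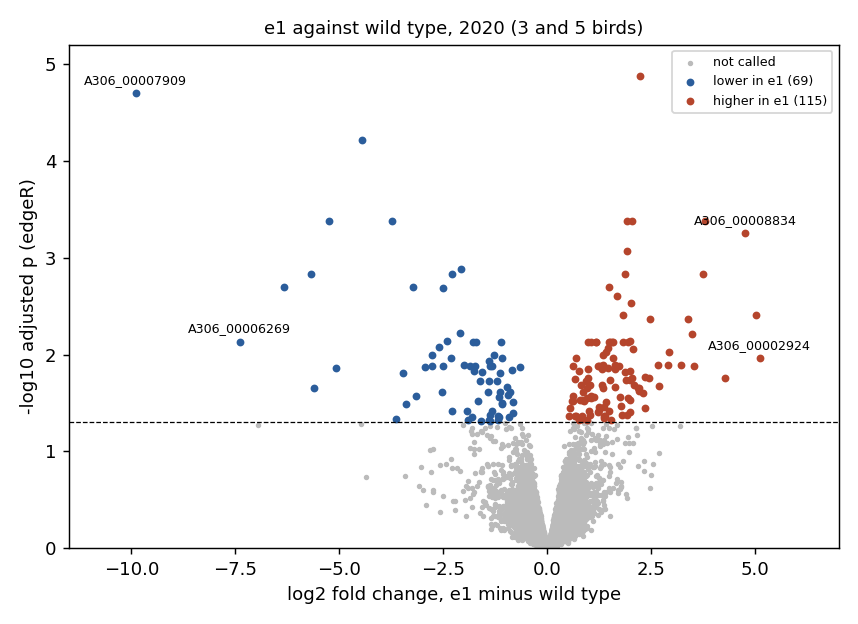
Each point is 1 of the 12636 tested genes. The horizontal axis is the log2 fold change of e1 over wild type in 2020, the vertical axis is -log10 of the adjusted p from edgeR, and the dashed line marks an adjusted p of 0.05. The 69 lower genes (blue) reach a log2 fold change of -9.90, and the 115 higher genes (red) reach 5.11.

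The lower gene with the largest change was A306_00007909, whose product the files do not name. Its level in the e1 birds was 7.26 CPM in bird 6, 3.24 CPM in bird 11 and 7.42 CPM in bird 12. In wild type it was 2828 CPM in bird 00, 7784 CPM in bird 20, 7918 CPM in bird 21, 5345 CPM in bird 23 and 5059 CPM in bird 24. The groups are far apart, and the lowest wild-type bird, 00, still held 46653 counts where the highest e1 bird held 122. The log2 fold change was -9.90 ± 0.55 (SE; edgeR, adjusted p = 1.98e-05), and it stayed between -10.10 and -9.61 when each bird was left out in turn, with -10.10 without e1 bird 6. This gene alone took 0.294% to 0.850% of all counts in wild-type collars and at most 7.89e-04% in e1 collars. The carrier stood at 5089 CPM, inside the wild-type range.

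The next lower gene under the naming rule was A306_00006269. The 3 e1 birds held 2, 2 and 1 counts, which is 0.119 CPM in bird 6, 0.130 CPM in bird 11 and 0.0693 CPM in bird 12. Wild-type birds held 11.6 CPM (bird 00), 29.5 CPM (bird 20), 3.38 CPM (bird 21), 38.5 CPM (bird 23) and 14.7 CPM (bird 24), so the groups do not overlap but wild type itself is spread widely. Summed over birds and scaled to library size, the wild-type level of A306_00006269 was 185 times the e1 level, with a 95% counting interval of 79.1 to 570 that covers counting error only. The fit gave a log2 fold change of -7.40 with an SE of 1.03 (edgeR, adjusted p = 0.00734), and it lay between -7.67 and -7.02 with each bird left out in turn. Without e1 bird 6 the adjusted p of A306_00006269 was 0.0518, just outside the threshold (edgeR). The carrier held 5.85 CPM, above all 3 e1 birds and above the lowest wild-type bird, 21.

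As a group, the 69 lower genes were lower by a similar amount in each e1 bird. The median log2 difference from the wild-type mean was -1.63 in bird 6, -1.66 in bird 11 and -1.71 in bird 12. In each of these birds all 69 lay under the mean of wild type, which follows from the lack of overlap of the groups. On these genes wild-type birds differed more among themselves than e1 birds did. Measured against the other wild-type birds, the medians of birds 00 and 24 were -0.36 and -0.40, and those of birds 20, 21 and 23 were 0.17, 0.27 and 0.36. Bird 24 was the lowest wild-type bird in 33 of the 69 genes and bird 00 in 23, while bird 23 was the lowest in 0. Over all tested genes bird 24 was the lowest in 21.9% and bird 00 in 19.5%. The spread between birds of 1 group, as the median SD of log2 CPM, was 0.27 in e1 and 0.40 in wild type for the lower genes, against 0.27 and 0.21 over all tested genes. These genes were called in the same birds, which favours genes with little spread. The log2 CPM values include a prior count of 2, which narrows differences between birds at low counts. In some of these genes the e1 birds had few counts, and the part of this in their spread was not tested.

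Summed over the 69 lower genes, the share of all counts was 1.22 ± 0.369% in wild type (SD, n = 5) and 0.169 ± 0.0134% in e1 (SD, n = 3). Without A306_00007909 they took 0.619 ± 0.167% in wild type (SD, n = 5) and 0.169 ± 0.0131% in e1 (SD, n = 3). In 6 of the 69 genes every e1 bird was under 0.5 CPM while every wild-type bird had at least 1 CPM. They are the only tested genes with this pattern (0.0475%), so that share is no separate background. These 6 genes held 3 to 9 counts summed over the 3 e1 birds and 171 to 1689 summed over the 5 wild-type birds.

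The leading higher genes were barely detected in wild type. A306_00002924 stood at 5.89 CPM in e1 bird 6, 1.23 CPM in bird 11 and 19.1 CPM in bird 12. In wild type it stood at 0.364 CPM in bird 00, 0.299 CPM in bird 20, 0.188 CPM in bird 21, 0.340 CPM in bird 23 and 0.0544 CPM in bird 24, from 1 to 6 counts. All 3 e1 birds were above all 5 wild-type birds, but the e1 birds differed among themselves more widely than the lowest of them differed from wild type. The log2 fold change was 5.11 ± 0.77 (SE; edgeR, adjusted p = 0.0108), and the adjusted p was 0.0608 when all 12 birds of 2020 entered the edgeR fit. With each bird left out in turn the log2 fold change of A306_00002924 lay between 3.83, without e1 bird 12, and 5.62, without e1 bird 11. It was 5.30 without e1 bird 6 (edgeR, adjusted p = 0.0322) and passed the test in all 8 of these fits. The e2 birds were as uneven for A306_00002924, at 0.448 CPM (bird 5), 22.7 CPM (bird 7) and 1.67 CPM (bird 14).

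A306_00008834 was more even. It stood at 9.17 CPM in e1 bird 6, 7.39 CPM in bird 11 and 5.82 CPM in bird 12. Wild-type birds held 0.485 CPM (bird 00), 0.120 CPM (bird 20), 0.50 CPM (bird 21), 0.170 CPM (bird 23) and 0.109 CPM (bird 24). The lowest e1 bird was thus clearly above the highest wild-type bird. The log2 fold change of A306_00008834 was 4.76 ± 0.43 (SE; edgeR, adjusted p = 5.54e-04) and lay between 4.52 and 5.07 with each bird left out in turn, with 4.56 without e1 bird 6. The carrier stood at 0.585 CPM for this gene, slightly above the highest wild-type bird.

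**Figure D2:**
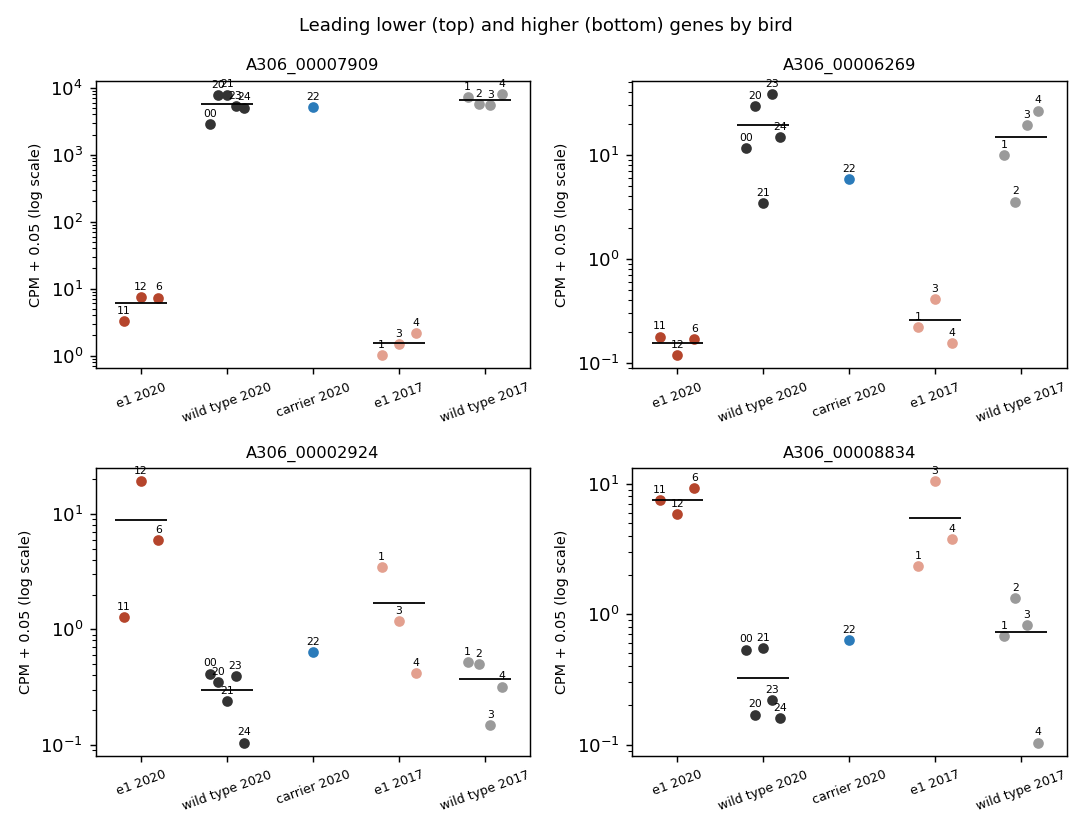
Each point is 1 bird, labelled by its number, and black lines are group means. The vertical axis is CPM plus 0.05 on a log scale, for A306_00007909 and A306_00006269 (top, lower in e1) and A306_00002924 and A306_00008834 (bottom, higher in e1). In 2020 the e1 and wild-type birds do not overlap in any of the 4 panels, and in 2017 they overlap for A306_00002924.

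As a group, the 115 higher genes were raised unevenly over the e1 birds. The median log2 difference from the wild-type mean was 1.70 in bird 6, 1.22 in bird 11 and 1.32 in bird 12. All 115 genes were above the wild-type mean in each bird, which follows from the lack of overlap of the groups. Bird 6 was the highest e1 bird in 69 of the 115 genes, or 60.0%, where it was the highest in 37.4% of all tested genes. Bird 6 also had the most counts and the most detected genes of the e1 birds, and the part of these in the result was not tested. The wild-type birds lay close together, with medians between -0.11 in bird 24 and 0.16 in bird 23. The 115 genes made up 1.08 ± 0.135% of e1 counts (SD, n = 3) and 0.431 ± 0.0486% in wild type (SD, n = 5). In bird 6 the share was 1.23%, in bird 11 0.978% and in bird 12 1.02%, and no wild-type bird was above 0.512%. These shares are of genes chosen for their difference in these birds.

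In 4 of the higher genes every wild-type bird was under 0.5 CPM while every e1 bird had at least 1 CPM. No other tested gene had this pattern, so their share of 0.0317% is no separate background. These are A306_00002924 and 3 genes named after their values were seen, A306_00007803, A306_00009751 and A306_00011091. A306_00009751 ranged from 1.90 to 4.21 CPM in e1 and from 0 to 0.218 CPM in wild type, and A306_00007803 from 2.08 to 3.89 CPM and from 0.0544 to 0.453 CPM. A306_00011091 ranged from 1.36 to 1.66 CPM in e1 and from 0.0626 to 0.340 CPM in wild type. In the birds of 2017, A306_00009751 was again higher in each e1 bird (1.27 to 3.78 CPM) than in any wild-type bird (0 to 0.450 CPM). A306_00007803 was also higher in each e1 bird of 2017 (3.41 to 6.39 CPM) than in any wild-type bird (0.108 to 0.901 CPM). A306_00011091 was not, with 0.106 to 0.405 CPM in e1 and 0 to 0.377 CPM in wild type.

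How many genes were called changed when single birds were left out, and a fit with fewer birds has less power by its construction. The lower count of 69 became 34 without e1 bird 6, 23 without bird 11 and 34 without bird 12, of which 26, 21 and 29 were among the 69. The higher count of 115 became 46 without e1 bird 6, 65 without e1 bird 12, 71 without wild-type bird 20 and 69 without wild-type bird 24, of which 42, 59, 68 and 68 were among the 115. Without e1 bird 6 the median log2 fold change over the 115 genes was 1.34 and all 115 remained above 0. Without e1 bird 6 the median over the 69 lower genes was -1.75, and all 69 remained below 0. The signs in both lists had to stay, since the groups overlap in no called gene. They therefore say nothing on the part of bird 6. DESeq2 called 221 lower and 269 higher genes in the same 8 birds (1.63% and 1.99% of 13550 genes with an adjusted p), which included all 69 and all 115.

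**Figure D3:**
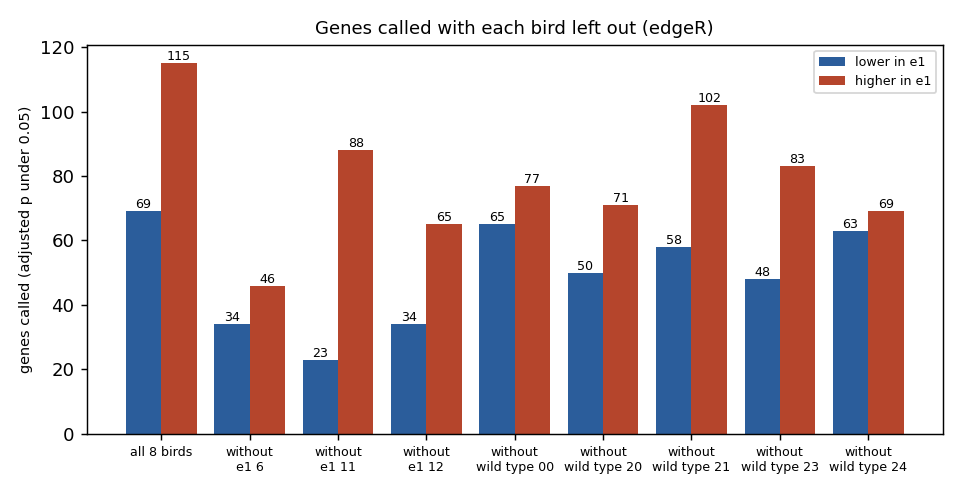
Bars give the number of genes called lower (blue) and higher (red) in e1 by edgeR with all 8 birds and with each bird left out in turn. The lower count is smallest without e1 bird 11, at 23, and the higher count is smallest without e1 bird 6, at 46.

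The precision of 3 against 5 birds limits what a missing call means. The median half-width of the 95% interval of a log2 fold change was 0.40 over all tested genes. For 9901 of the 12452 genes not called, or 79.5%, the interval lay within 1 log2 unit of 0, so that a 2-fold change lay outside it. For the remaining genes a 2-fold change was not excluded at this depth. An unadjusted p under 0.05 was found for 1724 genes, which is 13.6% of those tested, and 759 of these (6.01% of those tested) were lower in e1. Calls were spread over all levels of counting: 83 of them fell in the genes with the lowest mean counts (1.97% of those 4214 genes), 56 in the middle (1.33%) and 45 in the highest (1.07%).

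The next question is how far the genes called in 2020 differ in the e1 and wild-type birds of 2017, which did not enter the calls. In 2017, 58 genes were lower and 1 was higher in e1 (edgeR, 12693 genes tested, 0.457% and 0.00788%). Of the 69 genes lower in 2020, 68 could be tested in 2017, 67 had a negative log2 fold change and 32 were called lower. The median log2 fold change of these 68 genes was -1.87 in 2017 and -1.74 in 2020. At least 2-fold lower in 2017 were 52 of them, where 1.91% of all genes tested in both years were. In 57 of them every e1 bird of 2017 was below every wild-type bird, where 4.68% of all genes tested in both years were. Among all 12491 genes tested in both years, 47.4% had a negative sign in 2017. The 28 lower genes with a change of at least 4-fold in 2020 were again far lower: 27 could be tested, all 27 were negative and their median in 2017 was -3.41.

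The genes higher in 2020 kept less of their difference in the birds of 2017. Of the 115 genes, 113 could be tested, 103 had a positive log2 fold change and 1 was called higher, A306_00007803. Among all genes tested in both years, 52.6% were positive in 2017. The median over the 113 genes was 0.54 in 2017 and 1.47 in 2020. Choosing the genes by their 2020 values enlarges the 2020 median. In 10 of them every e1 bird of 2017 was above every wild-type bird, where 2.22% of all genes were. At least 2-fold higher in 2017 were 24 of them, where 0.921% of all genes tested in both years were. Of the 28 higher genes with a change of at least 4-fold in 2020, 26 could be tested in 2017. All 26 were positive, and their median in 2017 was 1.11. The number of positive genes in 2017 depended most on e1 bird 3 of that year. Without it 68 of 113 genes were positive and the median was 0.12, while leaving out any other bird of 2017 left 85.0% to 95.5% positive. For these fits the share of positive signs over all genes is not given here. Of the 46 genes called higher in 2020 without e1 bird 6, 44 could be tested in 2017, and all 44 were positive there with a median of 0.81. All 34 genes called lower without that bird were negative in 2017, with a median of -2.31.

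**Figure D4:**
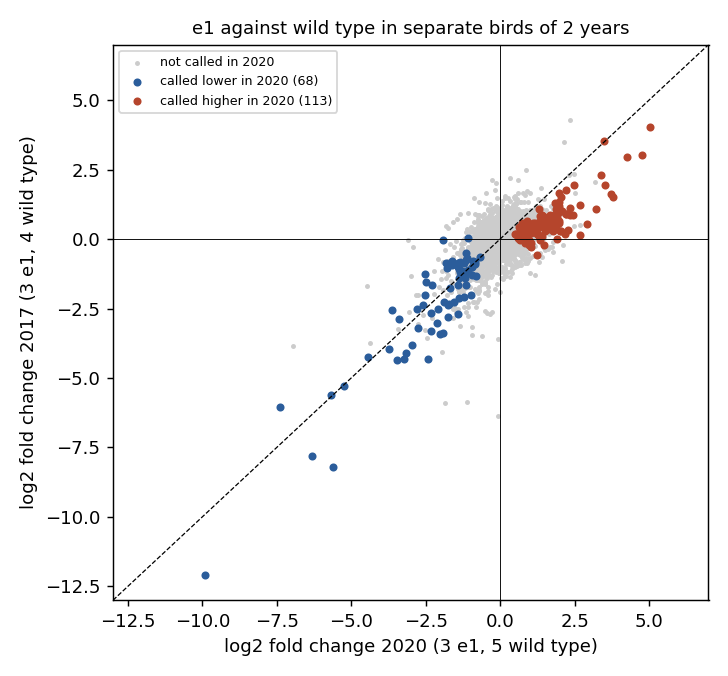
Each point is 1 of the 12491 genes tested in both years, with the log2 fold change of e1 over wild type in 2020 on the horizontal and in 2017 on the vertical axis, and the dashed line marks equal values. Genes called lower in 2020 (blue, 68) lie around that line, and genes called higher (red, 113) lie mostly below it, with medians of 1.47 in 2020 and 0.54 in 2017. Both lists were chosen by their 2020 values, which enlarges the 2020 side.

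The values per bird show the same difference between the lists. For the 69 lower genes the medians of the e1 birds of 2017 were -1.82, -1.61 and -1.73 in birds 1, 3 and 4, close to the medians of the e1 birds of 2020. For the 115 higher genes they were 0.29 in bird 1, 1.08 in bird 3 and 0.07 in bird 4. Wild-type bird 2 of 2017 stood at 0.69 on the higher genes, above e1 birds 1 and 4 of that year, with 110 of the 115 genes above the mean of the other wild-type birds. The other wild-type birds of 2017 stood at 0.09, -0.42 and -0.29. On the higher genes the medians of e1 and wild-type birds overlapped in 2017 and not in 2020, where the genes were chosen.

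**Figure D5:**
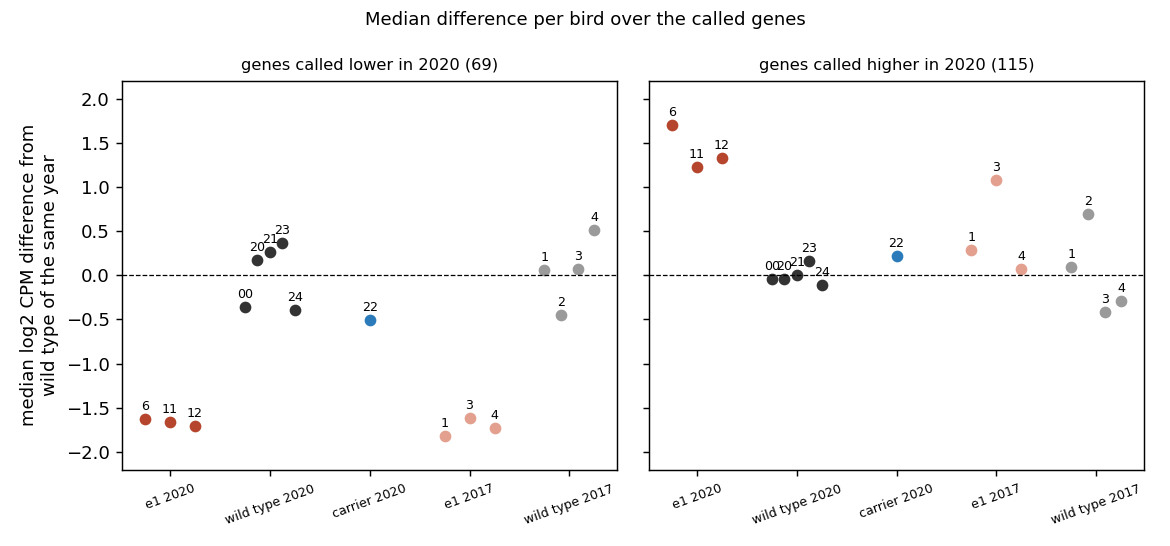
Each point is 1 bird, labelled by its number. The vertical axis is the median, over the genes called lower (left, 69) or higher (right, 115) in 2020, of the log2 CPM difference from the wild-type birds of the same year; a wild-type bird is set against the other wild-type birds. On the left the e1 birds of both years lie between -1.82 and -1.61; on the right the e1 birds of 2017 spread from 0.07 to 1.08.

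A direct test of the difference between the years, (e1 minus wild type in 2020) minus (e1 minus wild type in 2017) in 15 birds, called 0 of 12932 genes by edgeR, and 4 of 15136 (0.0264%) by DESeq2. By edgeR 581 genes, or 4.49%, had an unadjusted p under 0.05. The count by edgeR became 51 without e1 bird 3 of 2017, 1 without e1 bird 4 of 2017 and 1 without e1 bird 6 of 2020, and stayed at 0 without any 1 of the other birds. Among the 69 lower genes the difference was negative in 31 and positive in 38, with a median of 0.04 log2 units. Among the 115 higher genes it was positive in 114, with a median of 0.92, and 44 had an unadjusted p under 0.05. The choice of genes by their 2020 values enlarges the 2020 side in both lists, so these counts do not compare the size of change. The leading gene A306_00007909 was 1 of the 4 genes called by DESeq2, with a difference of 2.19 ± 0.48 log2 units (SE; DESeq2, adjusted p = 0.0171). By edgeR its difference was of similar size, 2.18 log2 units, but was not called (edgeR, unadjusted p = 6.82e-04, adjusted p = 0.938). For A306_00007909 the e1 birds of 2017 stood at 0.965, 1.44 and 2.11 CPM, below each e1 bird of 2020, and the wild-type birds of 2017 stood between 5520 and 8036 CPM.

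The other named genes kept their direction in 2017. A306_00006269 stood at 0.170, 0.360 and 0.106 CPM in the e1 birds of 2017 and at 9.89, 3.53, 19.3 and 26.8 CPM in wild type, with no overlap (log2 fold change -6.03 ± 0.81, SE; edgeR, adjusted p = 0.0127). A306_00008834 stood at 2.27, 10.3 and 3.70 CPM in e1 and at 0.631, 1.28, 0.778 and 0.0538 CPM in wild type, also without overlap, but its log2 fold change of 3.04 ± 0.72 did not pass the test (SE; edgeR, adjusted p = 0.160). A306_00002924 had too few counts to be tested in 2017 alone, and its e1 birds, at 3.41, 1.12 and 0.370 CPM, overlapped the wild-type range of 0.0972 to 0.473 CPM.

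The carrier of e1, bird 22, did not enter the calls. Of the 69 lower genes it lay inside the wild-type range in 33, between the ranges of both groups in 32 and inside the e1 range in 4. It was below the wild-type mean in 68 of the 69 genes, with a median log2 difference of -0.51 where the e1 birds had -1.67. Over all 12636 tested genes the carrier was below the wild-type mean in 6506, with a median of -0.006. Wild-type birds 00 and 24, each set against the mean of the other 4, were below it in 57 and 61 of the 69 genes. Their medians were -0.36 and -0.40. Birds 20, 21 and 23 were below it in 19, 19 and 14. Wild-type birds 00 and 24, each set against the other 4, were below the range of those 4 in 23 and 33 of the 69 genes. The carrier was below the range of all 5 wild-type birds in 36. In each gene 1 of the wild-type birds must be the lowest, so their counts divide the 69 genes among them. The carrier's count is not bound in this way and is set against a range of more birds. These counts therefore cannot place the carrier among the wild-type birds. The carrier was nearer to the e1 mean than to the wild-type mean in 16 of the 69 genes, and each wild-type bird in 0 to 2. Wild-type birds entered the choice of these genes and the carrier did not, so these values do not compare on equal terms.

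Of the 115 higher genes the carrier lay inside the wild-type range in 69, between the groups in 37, and inside the e1 range in 2. It lay below the wild-type range in 6 and above the e1 range in 1. It was above the wild-type mean in 82 of the 115 genes, with a median log2 difference of 0.21 where the e1 birds had 1.47. Over all 12636 tested genes the carrier was above the wild-type mean in 6130. Wild-type bird 23, set against the mean of the other 4, was above it in 73 of the 115 genes, with a median of 0.16. Birds 00, 20, 21 and 24 were above it in 53, 51, 58 and 44. Wild-type bird 23, set against the other 4, exceeded their range in 39 of the 115 genes. The carrier exceeded the range of all 5 in 40. In each gene 1 of the wild-type birds must be the highest, so here too the counts cannot place the carrier among them. It was nearer to the e1 mean than to the wild-type mean in 12 of the 115 genes, and each wild-type bird in 0 to 5. These values, too, do not compare on equal terms, since only wild-type birds entered the choice of the genes. The carrier is a single bird, and no test of its difference from either group was run.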

How the data were processed

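Per the file headers, the authors deposited raw counts per gene of Cliv2.1 for 19 birds, in a table of 15392 genes (207 with no count at all) that also holds DESeq2 results. Those DESeq2 results were not used, since they do not state their model. Per the submitters' processing notes, DESeq2 was used, with no version stated. The aligner, counter and strand setting were not given in the sources used here, so overlapping genes and near-identical copies may share or lose counts. Each library has its own title and is taken as 1 bird, which is the replicate. If birds were related, the p-values would not allow for it.

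Low counts were filtered with filterByExpr (edgeR 4.0.16 in R 4.3.3). The quasi-likelihood test used TMM scaling, in a fit of the 8 birds alone, with separate fits for the 7 birds of 2017 and for the interaction of genotype and year in 15 birds. A call is an adjusted p under 0.05. The standard error is the fold change over the square root of F. Printed CPM are on a single TMM scale over 19 birds, and log2 CPM per bird had a prior count of 2. DESeq2 (version 1.42.0) and sva (version 3.50.0) were alternatives. Named genes are the 2 per direction with the largest called change, no overlap of the groups and mean log2 CPM not under 1. The members, lists and tests were chosen with earlier results of these data known. Planned gene lists and cell markers could not be used, as 0 identifiers matched symbols.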

Additional observations from a re-analysis of the deposited data

How the results depend on the processing

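A minimum absolute log2 fold change of 1 was no new fit: it only dropped called genes and left 61 lower and 89 higher. The counts of 69 lower and 115 higher genes stayed within 1.5 times under DESeq2 size factors, upper-quartile scaling, no filter and a stricter filter of 1 CPM in 3 birds. They also did so with all 12 birds of 2020 in the fit, the carrier counted as wild type and 1 surrogate variable. The genes called were not all the same. With all 12 birds of 2020, 61 of the 69 and 75 of the 115 were still called. With the carrier counted as wild type 59 and 108 were, and with 1 surrogate variable 63 and 107. The counts became 221 and 269 with the DESeq2 Wald test. With each bird left out in turn they ranged from 23 to 65 and from 46 to 102. A fit with fewer birds has less power by its construction. For the direct test between the years, DESeq2 gave 4 genes, leaving out a bird gave 0 to 51, and the other settings gave 0. The share of lower genes that kept their sign in 2017 ranged from 97.0% to 100% with birds of 2017 left out. It was 95.02% for the 221 lower genes of DESeq2. The share of the higher genes ranged from 60.2% to 95.5% with birds of 2017 left out and was 82.5% for the 269 genes of DESeq2. The cause was not tested. The carrier's median stayed between -0.66 and -0.45 on the lower genes and between 0.18 and 0.30 on the higher genes with a bird left out. With the calls of DESeq2 it was nearer to the wild-type mean, at -0.33 on the lower and 0.12 on the higher genes. The log2 fold changes of the 4 named genes kept their sign in all 16 alternatives tried for each. These genes were chosen without overlap of the groups, so their sign could hardly change.

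The 2020 birds compared share no number. In 2017, numbers 1, 3 and 4 occur in both genotypes, and the count of 59 genes became 39 with the bird number as a replicate block. Same-numbered birds did not deviate together (r = -0.19, -0.08 and -0.13 across genes), and 0 of the 3 e1 birds correlated best with the wild-type bird of its number. These 3 correlations cannot decide whether the numbers pair the birds. The main fit for 2017 treated the birds as unpaired. The count of 59 became 238 with DESeq2 and ranged from 28 to 148 with each bird of 2017 left out.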

Other observations

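Of the 58 genes called lower in e1 in 2017, all 58 had a negative log2 fold change in 2020, 32 were called lower there and 52 were lower with an unadjusted p under 0.05. Among all genes tested in both years 47.2% were negative in 2020, and of all genes tested in 2020, 0.546% were called lower and 6.01% were lower with an unadjusted p under 0.05 (edgeR). Their median was -2.31 in 2017 and -1.38 in 2020. Choosing them by their 2017 values enlarges the 2017 median.

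Besides A306_00007909, the DESeq2 test between the years called A306_00001006, A306_00001007 and A306_00001008, which carry consecutive identifiers and were named after their values were seen. edgeR called 0 of them (adjusted p = 0.938, 0.611 and 0.524). Their differences between the years were of similar size by both methods, at 3.55, 2.23 and 1.48 log2 units by DESeq2 and 3.54, 2.22 and 1.47 by edgeR. A306_00001008 stood at 135, 171 and 136 CPM in the e1 birds of 2017 and at 661, 572, 781 and 832 CPM in wild type of that year. In 2020 it stood at 226, 156 and 204 CPM in e1 birds 6, 11 and 12 and at 249 to 424 CPM in wild type, so the gap between the genotypes was narrower and wild type was lower. A306_00001006 stood at 6.30 to 29.5 CPM in wild type and 0.795 to 2.17 CPM in e1 in 2017, whereas in 2020 wild type (2.1 to 7.18 CPM) and e1 (2.02 to 7.84 CPM) overlapped. A306_00001007 stood at 10.6 to 17.5 CPM in wild type and 0.908 to 2.64 CPM in e1 in 2017, and at 4.42 to 6.65 and 2.63 to 3.30 CPM in 2020. The files used here do not say whether these 3 genes are neighbours.

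For the e1 birds of 2017 the mean chi-square per gene was 52.5 between birds 1 and 3, 52.7 between birds 3 and 4, and 18.8 between birds 1 and 4. Pairs of wild-type birds of 2017 ranged from 25.8 to 58.8, so the values of e1 bird 3 lie inside that range. The number of higher genes with a positive sign in 2017 depended most on this e1 bird. E1 bird 3 had 23168538 counts, against 18452980 in e1 bird 1 and 18992949 in e1 bird 4, and chi-square grows with depth. The wild-type pair of 2017 with the most counts, birds 3 and 4 (22014628 and 20813602), gave 25.8. The part of depth was not tested. Over 22 checks of wild-type groups, on library measures, named genes and the gene lists, 0 birds passed Dixon's 95% critical value for the gap to the nearest bird over the range of the group. That value is 0.71 for 5 birds and 0.829 for 4, so only a wide gap passes it. The e1 groups are not among these checks. For wild-type bird 2 of 2017 on the higher genes the gap was 0.538 of the range, under the 0.829 for 4 birds. So few birds cannot decide whether it is an outlier.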
